A study of Mus musculus with 20 samples.

Results

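The microRNAs (miRNAs) mmu-miR-199a-3p, mmu-miR-199a-5p and mmu-miR-214-3p, called here without the species prefix, were followed in the lesion-bearing ascending aorta of atherosclerosis-prone mice. They were taken by name from the array annotation, and all 3 were found among the 1881 mature miRNAs on the array, each with 2 probes. The mice were male and carried both alleles that the labels write as Apobtm2Sgy/Ldltm1Her, in every group, so no group had intact genes at these loci. The labels place 2 samples at week 0 on chow, and 3 samples each on chow and on high fat diet at weeks 6, 18 and 30. The age label repeats these weeks, so the animals' age at the start is not known here. Each sample was total RNA of the tissue hybridised to its own 1-colour Agilent array, and replicates are separate only by label. The p-values therefore measure how far these samples spread, which may be technical.

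miRNAs lower the output of messenger RNAs that pair with their seed, bases 2 to 8 from the 5′ end. The miR-199a hairpin yields a mature miRNA from each arm, and both are known as mesenchymal miRNAs. Together with miR-214, they are abundant in fibroblasts and have been tied to fibrosis in heart, lung and kidney. In mouse, Mir199a-2 and Mir214 lie within Dnm3 and within the long non-coding RNA gene Dnm3os that runs opposite to it, and they are processed from one primary transcript. RefSeq places Mir199a-1 within Dnm2 and the paralog Mir199b within Dnm1. In bulk tissue, fewer cells of a type and less of a miRNA per cell cannot be told apart.

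The mature sequences are shown because the 3 miRNAs carry different seeds, so no 2 of them share a seed-defined set of targets. They are RefSeq's, from assembly GRCm38.p6, with the seed in capitals. The forms of miR-199a-5p and miR-199a-3p from Mir199a-2 lie at chr1:162217844-162217866 and chr1:162217883-162217904, and miR-214-3p lies at chr1:162223438-162223459, all on the plus strand.
miR-199a-5p: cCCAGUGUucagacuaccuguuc
miR-199a-3p: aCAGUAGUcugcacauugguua
miR-214-3p: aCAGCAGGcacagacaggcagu
miR-214-5p, the other arm: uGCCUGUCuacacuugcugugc

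The same miR-199a-5p sequence comes from 2 genes, Mir199a-2 and Mir199a-1, the latter on the minus strand at chr9:21496537-21496559. The miR-199a-3p sequence comes from 3 genes, because mature miR-199b-3p of Mir199b, at chr2:32318524-32318545, has identical letters. Its signal is therefore the sum over all 3 genes, and the array files list both names for its probes. For the paralog miR-199b-5p, the longer probe pairs with 22 bases of the Mir199b hairpin, which differ from miR-199a-5p by 1 substitution, C10U, counted from the 5′ end of miR-199a-5p. The position lies outside the seed and is in capitals here.
miR-199a-5p: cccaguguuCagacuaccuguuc
Mir199b stretch: ccaguguuUagacuaccuguuc

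The probes show which bases of each miRNA were read. All of them pair with the 3′ end, and they are printed 5′ to 3′ as the files give them.
miR-199a-3p probes: taaccaatgtgcagactac
and taaccaatgtgcagactact
miR-199a-5p probes: gaacaggtagtctgaacac
and gaacaggtagtctgaaca
miR-214-3p probes: actgcctgtctg
and actgcctgtctgt

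The miR-199a-3p probes are 19 and 20 bases long and the miR-199a-5p probes 19 and 18. Those of miR-214-3p are only 12 and 13 bases long and cover none of the seed. Among the RefSeq mature miRNAs, the bases they pair with occur in miR-214-3p alone. The files place the longer miR-214-3p probe at chr1:164153579-164153590 and the longer miR-199a-3p probe at chr2:32174047-32174065, both in mouse build mm9. Because probes differ in length and base content, the level of one miRNA was not set against that of another. Only the difference between a pair of miRNAs on the same array was compared from array to array.

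The 3 miRNAs were detected on all 20 arrays. Each array held up to 15 spots per probe, and the median coefficient of variation between spots ran from 3.28% to 9.44% over the 6 probes. The 2 probes of a miRNA followed each other across arrays, with Pearson's r of 0.999 for miR-199a-3p, 0.991 for miR-199a-5p and 0.988 for miR-214-3p. A level below is the log2 of the processed spot intensity after scaling of each array to a common 75th percentile of the 192 miRNAs that every array detected. Between 316 and 742 miRNAs were detected per array, and that percentile ran from 182.9 to 1652.5 intensity units. It was lowest on week 18 chow replicate 1 (182.9) and on replicate 1 of the week 30 high fat group (253.5), and the next lowest array had 356.5. These 2 arrays stood apart for the miRNAs described here, and the results that rest on them are given with and without them. The arrays lay on 3 slides: weeks 0 and 6 on the first, both chow groups of weeks 18 and 30 with 2 of the week 18 high fat samples on the second, and the remaining high fat samples of weeks 18 and 30 on the third.

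miR-199a-5p was the steadiest of the 3. At week 0 its level was 8.01 and 7.87, and in chow at week 6 it was 7.34, 7.47 and 7.09. On high fat diet at week 6 it was 7.04, 7.99 and 8.06. The chow samples of week 6 thus all lay below those of week 0, while the high fat samples of week 6 spread over both. At week 18 the level was 8.22, 7.34 and 8.09 on chow and 7.47, 7.82 and 7.83 on high fat diet, and the diets overlapped. At week 30 it was 7.87, 8.00 and 7.69 on chow and 7.42, 7.65 and 7.56 on high fat diet, where every high fat sample lay below every chow sample. Over all 20 arrays the level spanned only 1.18 log2 units. Its SD within groups, 0.32, was at the 4.69th percentile of the 192 miRNAs detected on every array, whose median was 0.70. Over arrays its SD was 0.34 with all 20 and 0.33 without the 2 dimmest. Without them miR-199a-3p had 0.38 and miR-214-3p 0.39, so the 3 were then close.

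miR-199a-3p, from the opposite arm, spread more. Its level was 9.32 and 9.54 at week 0, then 8.87, 9.06 and 8.64 on chow at week 6 and 8.58, 9.79 and 9.73 on high fat diet at week 6. As for the other arm, all chow samples of week 6 lay below those of week 0, and the first high fat sample of that week lay below the others. At week 18 the chow samples stood at 7.82, 8.79 and 9.60 and the high fat samples at 8.77, 9.34 and 9.16. At week 30 the chow samples stood at 8.86, 9.52 and 9.12 and the high fat samples at 5.88, 9.10 and 8.90. The lowest levels, 5.88 and 7.82, belonged to the dimmest arrays, and the other 18 arrays lay between 8.58 and 9.79. The SD over arrays was 0.85 with all 20 arrays and 0.38 without these 2.

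miR-214-3p gave the opposite picture on the same arrays. Its level was 6.10 and 6.40 at week 0, 5.70, 5.61 and 6.59 on chow at week 6 and 5.50, 6.04 and 6.04 on high fat diet at week 6. It was 8.85, 5.45 and 6.04 on chow at week 18 and 6.23, 6.01 and 6.45 on high fat diet at week 18. At week 30 it was 6.77, 6.32 and 5.80 on chow and 7.68, 6.58 and 6.50 on high fat diet. The highest values, 8.85 and 7.68, came from the dimmest arrays, and the other 18 lay between 5.45 and 6.77. The SD fell from 0.78 over 20 arrays to 0.39 over 18.

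**Figure D1:**
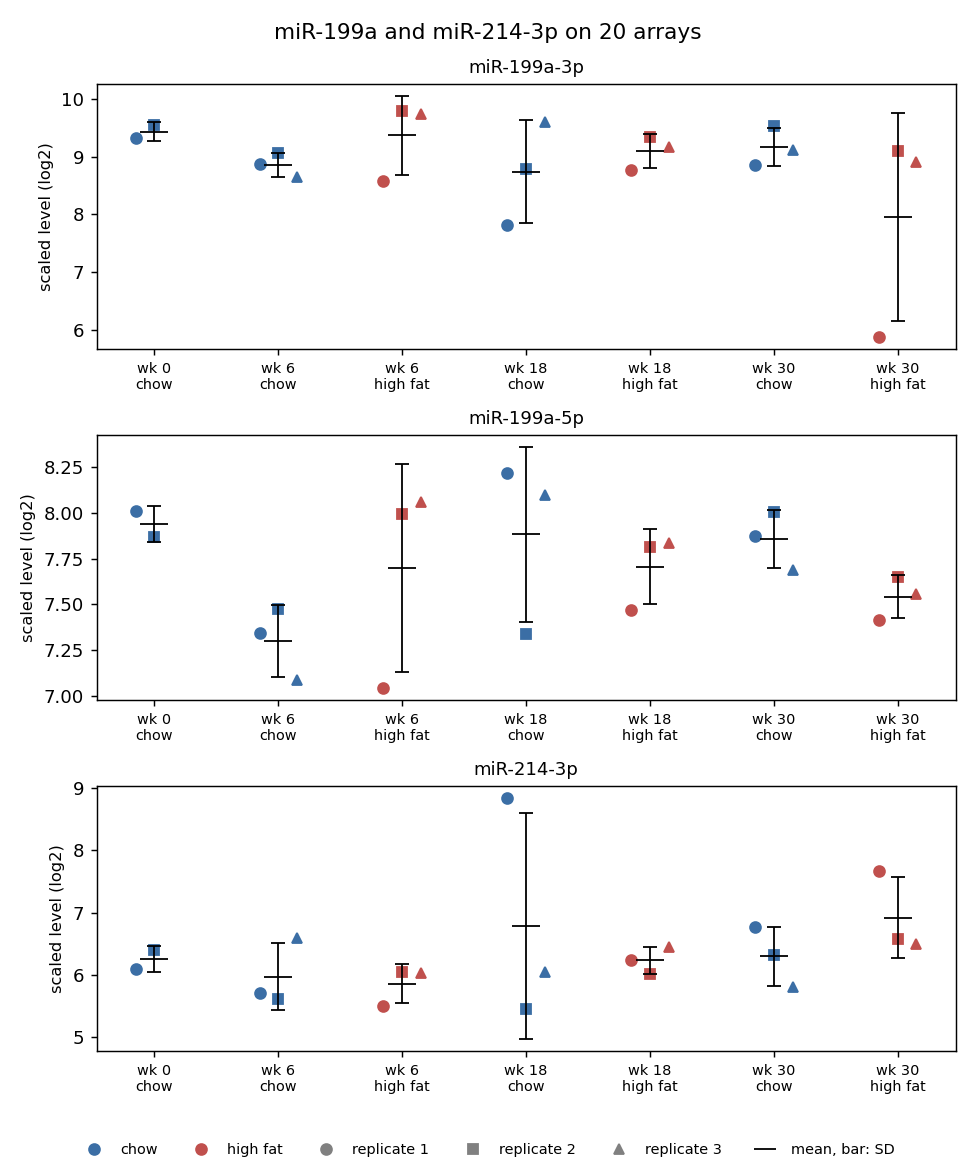
Scaled log2 level (y axis) of miR-199a-3p, miR-199a-5p and miR-214-3p by diet and week (x axis), 1 point per array, with the group mean and an SD bar. Replicate 1 of week 18 chow and of week 30 high fat lies far below the other arrays for miR-199a-3p (7.82 and 5.88) and above them for miR-214-3p (8.85 and 7.68).

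Before scaling, the dimmest arrays were low for both arms of miR-199a but not for miR-214-3p. miR-199a-3p had 53.2 intensity units on the week 18 chow array and 19.2 on the week 30 high fat array, against 258.0 to 1219.6 on the other 18 arrays. miR-199a-5p had 70.3 and 55.9, against 87.7 to 486.5. miR-214-3p had 108.8 and 66.9, within the 30.1 to 186.9 of the others, whose median was 79.3. Its unscaled signal was thus above that median on the week 18 chow array and below it on the week 30 high fat array. Both arrays had a small scaling divisor. These arrays had 316 and 355 detected miRNAs, but so few were also found on replicate 3 of the week 18 high fat group (328), the array with the highest percentile, and on replicate 3 of the week 6 high fat group (345). On the dimmest arrays the summed level of the 2 endothelial miRNAs miR-126a-3p and miR-126a-5p was 9.44 and 9.32 on the log2 scale, with 1 of the 2 detected on each. The sum of the red blood cell markers miR-451a and miR-144-3p was 8.71 and 9.19. Both sums were lower there than on any other array. The summed level of the 4 adipose markers went the other way, at 12.7 and 12.9, the highest of all arrays, with 4 of 4 detected. The 7 epithelial markers (the miR-200 family with miR-205-5p and miR-203-3p) had 0 of 7 detected on both of these arrays, and also on replicate 3 of the week 18 high fat group. The part of array signal, RNA quality or cell makeup in these values was not tested.

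Within an array, the difference between the arms of miR-199a was nearly constant. miR-199a-3p minus miR-199a-5p lay between 0.98 and 1.80 log2 units on the other 18 arrays, with a median of 1.51 and an SD of 0.18. On the dim week 18 chow array it was -0.40 and on the dim week 30 high fat array -1.54, both outside that range. miR-214-3p minus miR-199a-5p lay between -2.06 and -0.50 on the 18 arrays and was 0.63 and 0.26 on the same 2.

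**Figure D2:**
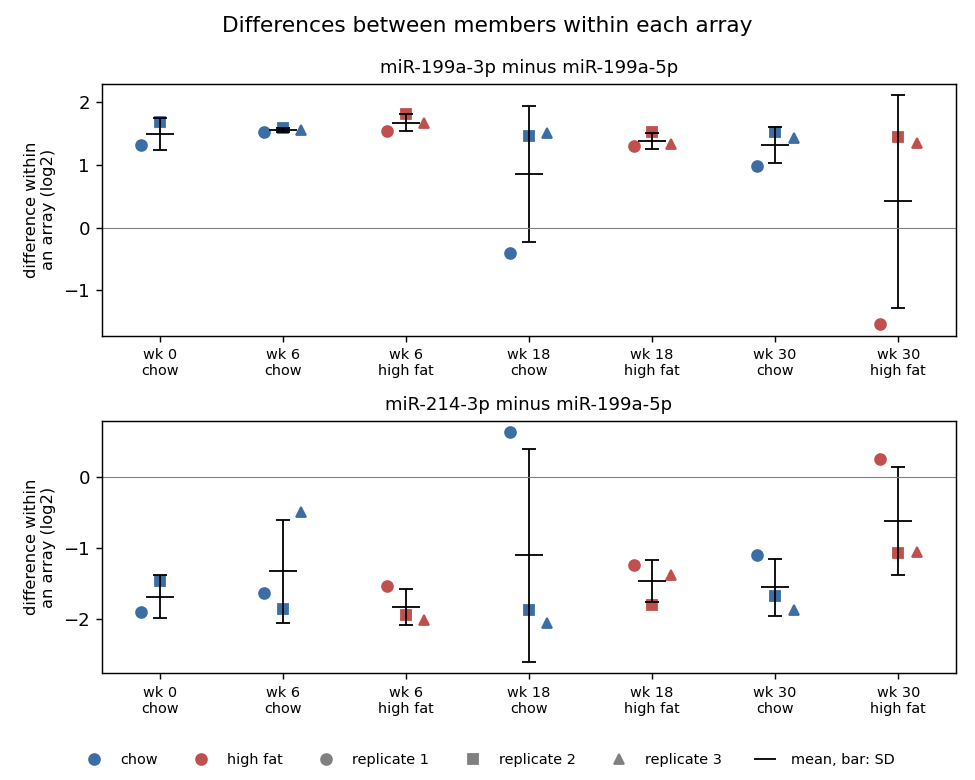
Difference in log2 level within each array (y axis) of miR-199a-3p minus miR-199a-5p and of miR-214-3p minus miR-199a-5p, by diet and week, with group mean and SD. All arrays but replicate 1 of week 18 chow and of week 30 high fat lie between 0.98 and 1.80 in the upper panel and between -2.06 and -0.50 in the lower one.

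All miRNAs of an array share its scaling factor, so correlations across arrays are given as a description only. Both arms of miR-199a had Pearson's r of 0.37 (Spearman's rho 0.62) over 20 arrays and r of 0.88 over 18. miR-199a-5p and miR-214-3p, of which Mir199a-2 and Mir214 share a primary transcript, had r of 0.34 over 20 arrays and 0.31 over 18. miR-199a-3p and miR-214-3p had r of -0.60 over 20 arrays and 0.08 over 18, so the negative value rested on the dimmest arrays. The paralog miR-199b-5p had r of 0.54 with miR-199a-5p and 0.63 with miR-199a-3p over 20 arrays. The arms miR-214-3p and miR-214-5p had r of -0.42 over 20 arrays and -0.26 over 18.

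**Figure D3:**
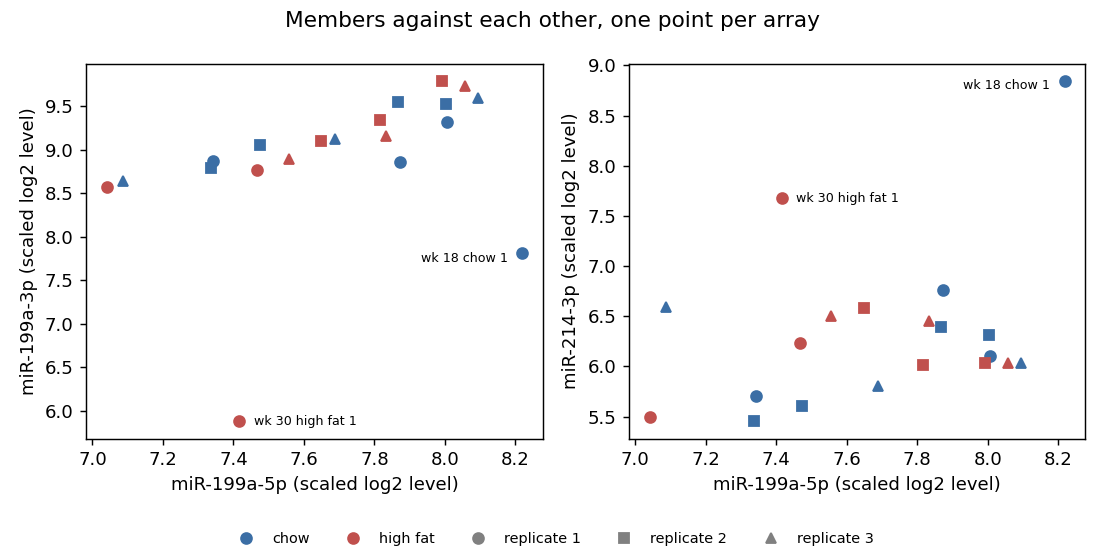
Scaled log2 level of miR-199a-3p (left) and miR-214-3p (right) against that of miR-199a-5p, 1 point per array, coloured by diet and shaped by replicate. In the left panel 18 arrays lie along 1 line (r of 0.88) with the 2 dimmest arrays below it, and in the right panel the same 2 arrays lie above the rest.

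High fat diet was compared with chow at each week in 1 limma fit over all 20 arrays, with p-values adjusted (Benjamini-Hochberg) over the 609 tested miRNAs. None of the 3 miRNAs passed an adjusted p of 0.05 in the 3 weekly comparisons or their mean. At week 6, 2.79% of all tested miRNAs were called, all lower on high fat diet, and at weeks 18 and 30 and for the mean 0% were. The diets overlapped for all 3 miRNAs at weeks 6 and 18, where 15.9% and 1.31% of the tested miRNAs had groups that did not overlap. The counts at an unadjusted p under 0.05 were 72, 7 and 102 of 609 at weeks 6, 18 and 30 and 97 for the mean. A p that misses the threshold does not show that the diets act alike, and the 95% intervals below give the differences the data still allow.

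miR-199a-5p had the narrowest intervals. High fat minus chow was 0.40 ± 0.37 (SE) log2 units at week 6 (adjusted p = 0.762), -0.18 ± 0.37 at week 18 (0.952) and -0.31 ± 0.37 at week 30 (0.553). At week 30 the groups did not overlap, as was also true for 54.2% of all tested miRNAs. Averaged over the 3 weeks the difference was -0.03 log2 units, with a 95% interval from -0.48 to 0.42. Without the 2 dimmest arrays the differences were -0.01 at week 18, -0.25 at week 30 and 0.04 on average.

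For miR-199a-3p the difference was 0.51 ± 0.67 at week 6 (adjusted p = 0.881), 0.36 ± 0.67 at week 18 (0.952) and -1.21 ± 0.67 at week 30 (0.297). The last is 2.31-fold lower on high fat diet, with a 95% interval from -2.62 to 0.20 log2 units. Without the 2 dimmest arrays it was -0.17 at week 30 (adjusted p = 0.837) and turned to -0.10 at week 18. The mean over the 3 weeks, -0.12 with an interval from -0.93 to 0.70, became 0.08.

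For miR-214-3p the difference was -0.11 ± 0.65 at week 6 (adjusted p = 0.991), -0.55 ± 0.65 at week 18 (0.952) and 0.63 ± 0.65 at week 30 (0.50). Its interval at week 30 ran from -0.74 to 1.99. Without the dimmest arrays the week 18 difference turned to 0.49 and that of week 30 shrank to 0.25. The mean over the 3 weeks was -0.01 with an interval from -0.80 to 0.78, and 0.21 without these arrays. On 8 arrays the slide position in the description differs from the one in the file, and taking the file's position as true would switch the diet of replicate 1 of both week 18 groups, after which the week 18 difference was 1.20 (adjusted p = 0.998). The same switch turned the sign of the week 18 difference for miR-199a-3p, to -0.28, and for miR-199a-5p, to 0.32, and that of the mean over the 3 weeks for miR-199a-5p (0.13) and miR-214-3p (0.57). In the steps in time it turned the sign from week 6 to 18 on chow for miR-199a-3p (0.19) and miR-214-3p (-0.06), from week 18 to 30 on chow for miR-199a-5p (0.22) and miR-214-3p (0.39), and from week 18 to 30 on high fat diet for miR-214-3p (-0.18). None of the 3 miRNAs was called in any comparison after the switch.

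The diet difference was also tested for a change over the 3 weeks with a moderated F test, in which 0.985% of the tested miRNAs were called. The adjusted p was 0.539 for miR-199a-3p, 0.696 for miR-199a-5p and 0.726 for miR-214-3p, and 0.729, 0.732 and 0.785 without the dimmest arrays. The week 30 chow and high fat arrays lay on different slides, so slide and diet cannot be told apart there from those arrays alone. With slide as a term in the fit of all arrays, linked through the week 18 high fat samples on both slides, the week 30 difference was -1.32 for miR-199a-3p, -0.51 for miR-199a-5p and 0.29 for miR-214-3p, again without a call. High fat replicates 2 and 3 of week 30 were near-identical arrays (SD of log2 differences 0.18). With near-identical arrays averaged, the limma difference was -1.73 (adjusted p = 0.335), -0.35 (0.619) and 0.81 (0.480) in the same order.

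**Figure D4:**
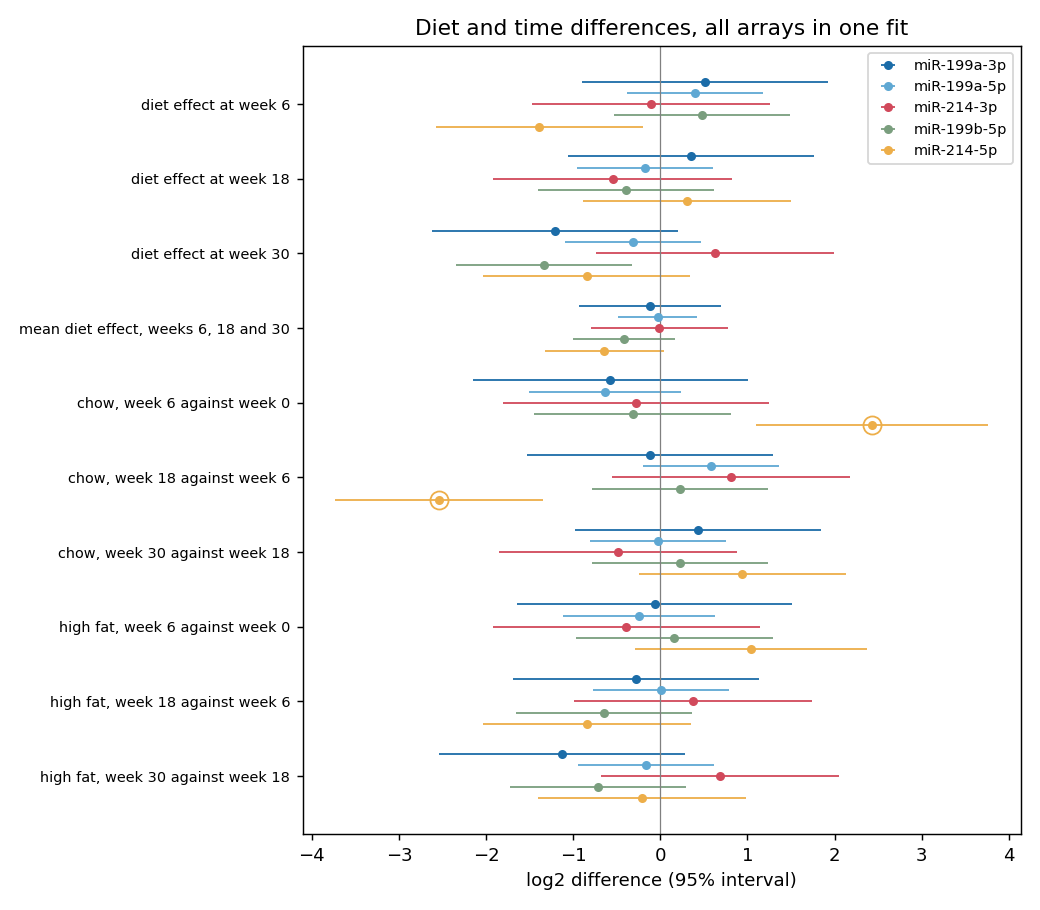
Log2 differences (x axis) with 95% intervals from the fit over all 20 arrays for the 3 miRNAs, the paralog miR-199b-5p and the other arm miR-214-5p, in 10 comparisons (y axis), diet effects being high fat minus chow. Open circles mark an adjusted p under 0.05, reached by miR-214-5p in chow at week 6 against week 0 and at week 18 against week 6 and by no other point.

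In time on chow, the 3 miRNAs lay lower at week 6 than at week 0, without a call, while the median of all tested miRNAs was 0.62 higher. The difference was -0.58 ± 0.75 (SE) log2 units for miR-199a-3p (adjusted p = 0.728), -0.64 ± 0.41 for miR-199a-5p (0.378) and -0.28 ± 0.73 for miR-214-3p (0.878). With the percentile taken over all miRNAs it was -2.03 for miR-199a-3p (adjusted p = 0.0662), -2.09 for miR-199a-5p (0.023) and -1.73 for miR-214-3p (0.0998), and with normexp background correction that of miR-214-3p was 0.07. The groups did not overlap for both arms of miR-199a, against 63.9% of all tested miRNAs in either direction, and 21.7% of the tested miRNAs were called, all higher at week 6. From week 6 to week 18 on chow, where 15.9% were called, all lower, and 35.3% had groups that did not overlap, the 3 miRNAs overlapped and the difference was -0.12 for miR-199a-3p (adjusted p = 0.927), 0.58 for miR-199a-5p (0.320) and 0.81 for miR-214-3p (0.462). Without the 2 dimmest arrays, that of miR-214-3p turned to -0.22 and that of miR-199a-3p to 0.34, while that of miR-199a-5p stayed positive at 0.41. These 2 weeks lay on different slides, so slide and time cannot be told apart in this step. From week 18 to week 30 on chow, with 0% called by limma and 3 of 609 at an unadjusted p under 0.05, the differences were 0.43, -0.03 and -0.49 in the same order. Without the dimmest arrays all 3 took the other sign, at -0.03, 0.14 and 0.55.

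On high fat diet none of the steps in time had a call for any tested miRNA, and the counts at an unadjusted p under 0.05 were 46, 62 and 19 of 609. Week 6 minus week 0 was -0.07 for miR-199a-3p, -0.24 for miR-199a-5p and -0.39 for miR-214-3p. For miR-214-3p the week 6 samples lay below the week 0 samples with no overlap, as for 18.2% of all tested miRNAs in either direction. From week 6 to week 18 the groups overlapped for all 3, with 1.15% of the tested miRNAs not overlapping, and the differences were -0.28, 0.01 and 0.38 in the same order. Week 6 and week 18 lay on different slides, so slide and time cannot be told apart in this step. From week 18 to week 30, miR-199a-3p differed by -1.13 ± 0.67 (adjusted p = 0.811), miR-199a-5p by -0.17 ± 0.37 (0.876) and miR-214-3p by 0.69 ± 0.65 (0.811). For miR-214-3p the week 30 samples lay above the week 18 samples with no overlap, as for 7.72% of all tested miRNAs in either direction. Of week 18, only replicate 3 shared the slide of the week 30 samples. It was the highest of its group, at 6.45 against 6.50 for the lowest week 30 sample. With slide as a term the miR-214-3p step was 0.47, and slide and time can hardly be told apart here. Without the dimmest arrays the step was -0.09 for miR-199a-3p, -0.10 for miR-199a-5p and 0.31 for miR-214-3p. High fat replicate 3 of week 18 and replicate 2 of week 30 were nearly the same over all miRNAs detected everywhere (SD of log2 differences 0.19, against a median of 0.95 for 2 arrays of one group and slide), and they differed by at most 0.19 for the 3 miRNAs.

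The order of the 7 group means differed between the miRNAs, and no 2 neighbouring groups in any of the 3 orders had ranges that did not overlap. For miR-199a-5p it ran from week 0 at 7.94 ± 0.10 (SD, n = 2) to week 6 chow at 7.30 ± 0.20 (n = 3). For miR-199a-3p it ran from week 0 at 9.43 ± 0.16 (SD, n = 2) to week 30 high fat at 7.96 ± 1.81 (n = 3). For miR-214-3p it ran from week 30 high fat at 6.92 ± 0.66 (SD, n = 3) to week 6 high fat at 5.86 ± 0.31 (n = 3).

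miR-199b-5p, which shares its arm and all but the substituted base with miR-199a-5p over the stretch shown above, had its lowest group at week 30 on high fat diet. Its level there was 7.11, 7.37 and 7.06, against 8.29, 9.13 and 8.14 on chow at week 30. The groups did not overlap, as for 54.2% of all tested miRNAs, and the difference was -1.34 ± 0.48 (SE) log2 units, or 2.53-fold lower on high fat diet, with an unadjusted p of 0.0122 and an adjusted p of 0.185 from limma, which misses the threshold. The 95% interval ran from -2.35 to -0.33. With slide as a term the difference was -0.84 (adjusted p = 0.693). High fat replicates 2 and 3 of week 30 were near-identical arrays (SD of log2 differences 0.18), and with these averaged to 1 sample it was -1.36 (adjusted p = 0.335). At weeks 6 and 18 the difference was 0.48 (adjusted p = 0.786) and -0.40 (0.952), and the F test for a change between weeks had an unadjusted p of 0.0491 and an adjusted p of 0.539. Within an array, miR-199b-5p minus miR-199a-5p averaged 0.67 ± 0.40 (SD, n = 3) on chow at week 30 and -0.36 ± 0.12 (n = 3) on high fat diet. The paralogs thus kept different distances in these 2 groups, which lay on different slides. Week 18 high fat replicate 3, on the slide of the week 30 high fat samples, had -0.27. Replicates 1 and 2 of its group, on the slide of the week 30 chow samples, had 0.02 and 0.83. Slide and diet cannot be told apart here, and the difference was not tested.

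miR-214-5p, the other arm of the miR-214 hairpin, was dim and detected on 14 of 20 arrays. In chow it stood at 2.87 and 3.79 at week 0, where the first value is the floor of the scale and only the second sample was detected. At week 6 on chow it was detected in all 3 samples at 6.20, 5.83 and 5.26, and at week 18 it was 2.87, 3.93 and 2.87, with 2 of 3 detected. It rose by 2.43 ± 0.63 (SE) log2 units from week 0 to week 6 in chow (adjusted p = 0.0197), where all miRNAs shifted by a median of 0.62, and fell by 2.54 from week 6 to week 18 (SE 0.57, adjusted p = 0.00647). In the first step 21.7% of the tested miRNAs were called, all higher, and in the second 15.9%, all lower, so many miRNAs were called in the same directions. No week 6 sample overlapped those of either other week, as for 63.9% of the tested miRNAs in the first step and 35.3% in the second.

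The first of these calls was lost under several settings, all of which kept its direction. It was lost with the 75th percentile taken over all miRNAs (1.04, adjusted p = 0.161), within the first slide (2.43, adjusted p = 0.058), with week 6 chow replicates 1 and 2, which were near-identical, averaged (2.30, adjusted p = 0.0858), and without either week 0 sample (1.97, adjusted p = 0.184 without replicate 1, and 2.89, 0.0508 without replicate 2) or either of those 2 week 6 samples (2.21, 0.0755 and 2.40, 0.0567). The fall to week 18 was kept in all 20 fits that left out 1 array (adjusted p 0.000995 to 0.0447), and lost with the near-identical arrays averaged (-2.41, adjusted p = 0.0501). It was also lost with the percentile over all miRNAs (-1.84, adjusted p = 0.0568), with no scaling between arrays (-1.88, 0.326) and with normexp background correction (-0.60, 0.997). The week 6 and week 18 chow arrays lay on different slides, so slide and time cannot be told apart in this fall. Beside the rise, the 7 epithelial markers had a summed level of 6.88 to 6.90 on the log2 scale at week 0, with 1 and 2 of 7 detected, and 9.24 to 10.9 at week 6 on chow, with all 7 detected on each array. Of these 7, 1 passed the test, higher, beside 21.7% of all tested miRNAs. In this step the red blood cell (1.82) and striated muscle (1.01) medians were also higher. The leukocyte median was -0.11, and the fibroblast, smooth muscle, endothelial and adipose medians were lower. Beside the fall, the 6 leukocyte markers went from 11.4 to 11.9 down to 8.75 to 9.79, and 2 of 6, miR-142a-3p and miR-142a-5p, passed the test, lower, beside 15.9% of all tested miRNAs. At week 0 the leukocyte sum was 9.43 and 11.3. From week 6 to week 18 on chow the epithelial (-1.59), red blood cell (-1.93), fibroblast (-0.23) and endothelial (-0.16) medians were also lower. Those of the smooth muscle (0.45), adipose (0.51) and striated muscle (0.06) lists were higher. The epithelial sum did not follow the fall on every array, at 3.38, 6.60 and 11.3 at week 18 on chow. Its 11.3 came from replicate 3, with all 7 detected, where miR-214-5p stood at the floor. The part of other cell types in either result was not tested.

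On high fat diet at week 6, miR-214-5p was 4.76, 5.48 and 2.87, with 2 of 3 detected, and high fat minus chow was -1.39 ± 0.57 (adjusted p = 0.277). At week 30 it was 4.40, 4.32 and 3.77 on chow and 2.87, 3.54 and 3.55 on high fat diet, with no overlap and a difference of -0.84 ± 0.57 (adjusted p = 0.343). miR-214-3p did not share the week 6 peak: its chow samples at week 6 lay among those of week 0 and week 18.

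**Figure D5:**
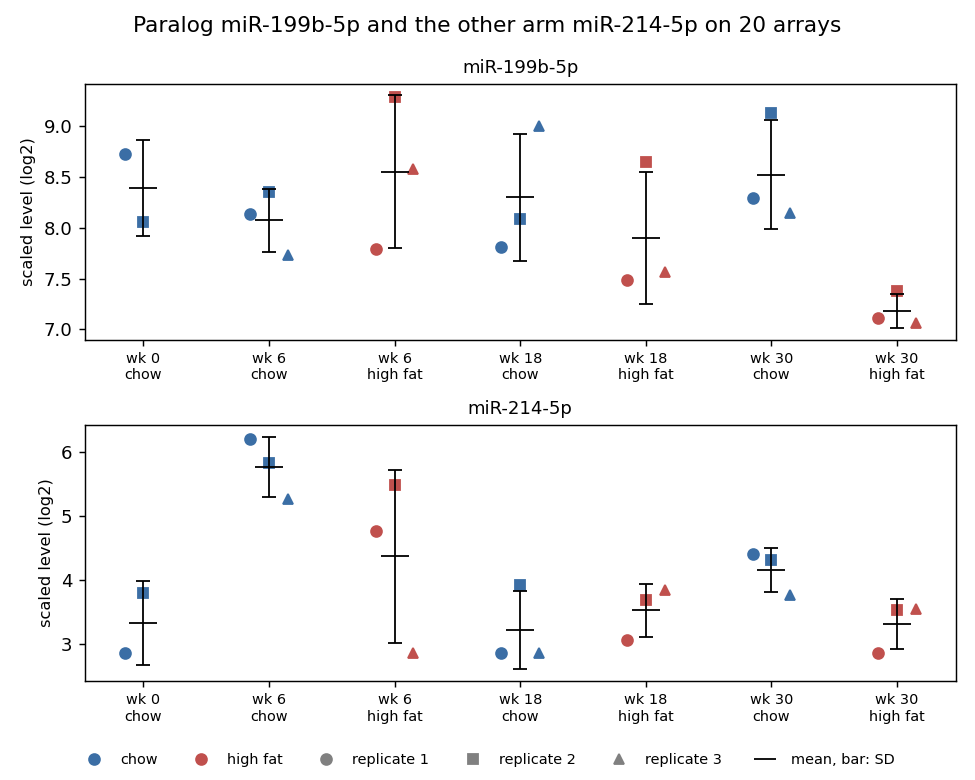
Scaled log2 level (y axis) of miR-199b-5p and miR-214-5p by diet and week, 1 point per array, with group mean and SD. miR-199b-5p lies between 7.06 and 7.37 in all week 30 high fat samples, below all week 30 chow samples, and miR-214-5p is highest in the week 6 chow samples (5.26 to 6.20), with 5 arrays at the floor of 2.87.

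The fibroblast and matrix list held 16 names with miR-199 and miR-214 left in, 15 of them on the array and 9 tested beyond those already described. These 9 were the miR-29 family, miR-21a-5p, miR-132-3p, miR-212-3p, miR-140-5p, miR-140-3p and miR-152-3p. None of the 9 passed the test in any of the 10 comparisons. At week 30, 7 of the 9 lay lower on high fat diet, with a median of -0.89 against -0.14 for all tested miRNAs. miR-21a-5p, which is raised in activated fibroblasts, differed by -1.74 ± 0.78 (adjusted p = 0.272), and miR-29b-3p, which targets collagen messages, by -1.40 ± 0.77 (0.297). Both values rested largely on the dim week 30 high fat array, where miR-21a-5p stood at 6.40 against at least 9.79 on the 18 brighter arrays. Without the 2 dimmest arrays they were -0.60 (adjusted p = 0.572) and -0.64 (0.605), and the list's median was -0.22 against -0.12 for all tested miRNAs, with 6 of 9 lower. At week 6 the median was 0.15 against -0.12, and at week 18 it was -0.09 against 0.27. In chow from week 0 to week 6 the list's median was -0.50, and 8 of 9 lay lower, against 0.62 for all tested miRNAs. The medians of the smooth muscle (-0.62, 3 of 3 lower), endothelial (-0.58, 2 of 2 lower) and adipose (-0.82, 4 of 4 lower) lists lay on the same side, as did miR-199a and miR-214-3p. Those of the epithelial (3.12, 7 of 7 higher), red blood cell (1.82, 2 of 2 higher) and striated muscle (1.01, 4 of 4 higher) lists lay on the other side. The leukocyte median was -0.11, with 3 of 6 higher.

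Defining miRNAs of the aortic wall were present beside them. The 3 tested smooth muscle miRNAs of the miR-143 and miR-145 hairpins were detected on every array of the chow groups, and their summed level ran from 10.1 to 11.4 over all groups. Neither smooth muscle nor endothelial markers passed the test in any of the 10 comparisons. At week 30, where miR-199a-3p and miR-199b-5p had their largest negative diet differences, the endothelial sum was 10.8 to 11.9 on chow and 9.32 to 11.2 on high fat diet, where 9.32 came from the dim array and the others had 10.98 and 11.2. The 7 epithelial markers all lay lower on high fat diet, with a median of -1.77. Their sums were 6.75, 10.6 and 6.89 on chow, with 1, 7 and 5 of 7 detected, and 4.67 to 6.12 on high fat diet. The high chow sum thus came from replicate 2 alone. For the leukocyte markers, 5 of the 6 lay lower, with a median of -1.13. Without the dimmest arrays these medians were -1.77 and -1.34, and that of the endothelial markers went from -1.26 to -0.51. The smooth muscle median was -0.04, with 1 of 3 higher on high fat diet, and 0.38 with 3 of 3 higher without the dimmest arrays. The striated muscle and adipose medians were 0.25 and -0.05, each with 2 of 4 higher. Without the dimmest arrays they were -0.17 and -0.55. None of these markers passed the test at week 30. The red blood cell markers miR-451a and miR-144-3p summed to 10.9 to 12.2 on chow and 9.19 to 10.95 on high fat diet there. The part of cell makeup in the week 30 differences was not tested.

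Among the 188 other miRNAs detected on all arrays, those most like each of the 3 were named by Pearson's r of the scaled level over 20 arrays. For miR-199a-3p they were miR-21a-5p (0.93), miR-130a-3p (0.93), miR-195a-5p (0.91), miR-30b-5p (0.91) and miR-26b-5p (0.91), against a median of -0.30 over the 188. miR-21a-5p also had its lowest levels on the dimmest arrays, 9.13 and 6.40 against 9.79 to 12.4 on the others. Without these arrays miR-130a-3p came first, with 0.91, and miR-21a-5p second, with 0.77.

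For miR-199a-5p the likeness was lower, and the nearest were miR-24-3p (0.62), miR-27b-3p (0.62), miR-30a-3p (0.61), miR-30d-5p (0.58) and miR-140-3p (0.57). Over 18 arrays miR-130a-3p was nearest, with 0.83, as it was for the opposite arm. For miR-214-3p the nearest were miR-140-3p (0.79), miR-3473g (0.78), miR-5107-5p (0.77), miR-202-3p (0.76) and miR-2137 (0.76). miR-140-3p, a miRNA known from cartilage, reached 11.3 and 10.9 on the dimmest arrays against 9.33 to 10.6 on the others. It stayed first over 18 arrays, with 0.58. All miRNAs of an array share its scaling factor, so these values describe these arrays only.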

How the data were processed

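The deposited files hold spot intensity values on a linear scale, which the authors obtained with version 11.5.1 of Agilent Feature Extraction according to the submitters' processing notes. Per the file headers, a fitted background surface was subtracted and arrays were not scaled to each other. The deposited value table held the same intensity. After removal of control and outlier-flagged spots, means were taken over the spots of a probe and then over a miRNA's probes. Detection required that a probe had 0.5 or more of its usable spots well above background. Arrays were scaled to the 75th percentile, floored at 2.87 and put on the log2 scale, and limma 3.58.1 (lmFit, eBayes, R 4.3.3) was fitted over 20 arrays and 7 groups (13 residual degrees of freedom, 2-sided, Benjamini-Hochberg over the 609 miRNAs that had at least 1 group with detection in all its samples). It was tested on simulated data. The number of arrays limits the precision. Named miRNAs were the 3 members of the set, their other arms and paralog, the 5 most correlated miRNAs each, and up to 2 per marker list by smallest p. The members and lists were chosen with earlier results of these data known. Alternatives are in the closing section.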

Additional observations from a re-analysis of the deposited data

How the results depend on the processing

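For the 3 miRNAs, 33 results were recomputed under up to 37 alternatives, and 1184 of 1188 values stayed on the same side of the threshold. The other 4, all for miR-199a-5p in chow, passed it: week 6 against week 0 with the percentile over all miRNAs (-2.09, adjusted p = 0.023), with the 2 compared groups alone in the fit (-0.64, 0.0474) and with array weights (-0.56, 0.0376), and week 18 against week 6 with array weights (0.65, 0.00405). The array weight estimation stopped before it converged. In 99 values an uncalled difference had the other sign, and the cause was not tested. miR-199b-5p at week 30 passed with only the compared groups (adjusted p = 0.0397) and with array weights (0.00244), and with array weights also for the mean diet effect (-0.70, 0.0336) and chow week 18 against week 6 (0.69, 0.0277). miR-214-5p passed in high fat at week 6 against week 0 without the 4 arrays with the fewest detected miRNAs (1.79, 0.0295). miR-214-5p in chow was also lost with no scaling between arrays (2.01, adjusted p = 0.279, and -1.88, 0.326), with normexp background correction (0.98, 0.486, and -0.60, 0.997), with quantile normalization (1.05, 0.148, first step) and with all miRNAs tested (0.0519, first step). With the percentile over all miRNAs, the second step was -1.84 (adjusted p = 0.0568).

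The count of all miRNAs called ran from 0 to 26 for the week 6 diet effect (17 as reported), 0 to 17 at week 18 and 0 to 270 at week 30 (0 as reported), 0 to 177 for the mean, 0 to 271 and 1 to 368 for the first 2 chow steps (132 and 97), 0 to 110 and 0 to 17 for the first and last high fat steps and 0 to 96 for the change over time (6). The replicate numbers gave no sign of pairing the samples (median r of same-numbered deviations 0.019, from -0.59 to 0.74, and of differently numbered ones -0.020). Such a wide range cannot show that the samples were unpaired. With the replicate block the week 30 diet difference of miR-199a-3p was -1.21 (adjusted p = 0.209), and the block changed no call for the 3 miRNAs. Leaving out the 2 dimmest arrays was chosen after seeing the data.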
